A study of Mus musculus with 23 samples.

Results

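Gene expression was compared in whole brains of adult male mice whose recipient mothers had eaten a low-protein diet with added folic acid (FA) or the same low-protein diet without it (PR). The FA and PR groups held 4 mice each, and these 8 one-colour arrays were chosen by their diet labels out of 12 expression arrays and 23 samples in the series. Both diets contained 5% casein, and folic acid was 0.1% by weight in the FA diet and 0.02% in the PR diet. The other 4 expression arrays came from mice of the control diet (CD, 20% casein, 0.02% folic acid) and are given here only beside FA and PR values.

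All mice were C57BL/6J progenies of in vitro fertilization, killed at 19 weeks. The embryos were carried by ICR recipients, an outbred stock, which ate the test diet from before embryo transfer until delivery. Pups were born by cesarean section and nursed by ICR foster mothers, and all groups ate the CD diet after weaning. The study gives the diet of the foster mothers in more than one way. Its methods name CD in one place and the test diets in another, its outline and results CD, PR or FA, and its discussion CD. Nursing on different diets therefore cannot be told apart from exposure in the womb. Brains were taken in adulthood after behavioral tests. The labels do not give the recipient or litter of a mouse, so p-values measure only the spread between these mice. The RNA came from whole brain, in which fewer cells of a type and less RNA per cell cannot be told apart.

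Folate carries single-carbon units for purine and thymidylate synthesis and for the remethylation of homocysteine to methionine. Methionine in turn gives S-adenosylmethionine, the methyl donor of DNA and histone methyltransferases. Low maternal protein and added folic acid are studied together because both reach this pathway during development. The question of the comparison was which adult brain transcripts differed when folic acid alone was raised on a low-protein background.

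Each diet was hybridized on a slide of its own with its own scan, and in every value below the effects of slide, scan and diet cannot be told apart. Intensity was measured for 39429 probes per array and no spot was saturated. The number of spots well above the local background was 31910 ± 1051 (SD, n = 4) in PR and 31080 ± 537 in FA (exact two-sided permutation test, p = 0.229). The 75th percentile of the raw intensity was 2076 ± 138 in PR and 1833 ± 110 in FA (exact permutation p = 0.0571, adjusted p = 0.171 over 3 array-wide measures). With 4 arrays against 4, the smallest p of this test is 0.0286. Markers of neurons, astrocytes, oligodendrocytes and microglia were present on every array, with mean log2 intensities per list from 10.72 to 13.13 in PR for the lists of inhibitory neurons, excitatory neurons, astrocytes, myelin and microglia.

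Differences between FA and PR mice were small. Values below are normalized log2 intensities per mouse, in the order of mice 1 to 4 of a group, and a difference is FA minus PR with its standard error from the limma fit. The study's own lists of this comparison are short, limited to changes of at least 2-fold at a stricter adjusted p than here. The probes in those lists carry the opposite direction there, whereas here the direction follows the diet label of each array. A probe was called at an adjusted p under 0.05 (limma, Benjamini-Hochberg over all probes). On this rule 159 probes were lower (0.403%) and 93 probes were higher (0.236%) in FA, and 12 of the lower and 5 of the higher probes differed at least 2-fold by the fitted value. The split between directions moved with the scaling, since scaling to the 75th percentile gave 119 lower and 24 higher probes. Leaving out mouse FA3 reduced the calls to 19 lower and 15 higher probes. Leaving out any other mouse but FA1 gave 29 to 60 lower and 17 to 39 higher, without FA1 there were 143 lower and 53 higher, and a fit with the replicate number as a block left 6 lower and 5 higher.

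Of the probes well above background on all 8 arrays, 26542 in number, 141 were called lower (0.531%) and 70 higher. All 4 FA values lay below all 4 PR values, without overlap, at 1781 of these probes (6.71%), and all FA values were above all PR values at 2067. Counted by gene, with the brightest probe standing for a gene, 17728 genes were measured. Of these, 77 were called lower (0.434%) and 44 higher (0.248%), and the groups did not overlap at 1119 genes lower in FA (6.31%) and 1385 genes higher in FA (7.81%). These last 2 shares are the background for each count of genes without overlap below. The median difference over all genes was 0.01, and 8010 of the 17728 genes had a negative difference. At an unadjusted p under 0.05 there were 2964 genes (16.7%). The methods' Tukey test, run here on the same values, left 1 probe at an adjusted p under 0.05, fewer than the study lists at its stricter limit. The plot of differences by level shows called probes at low and at high intensities.

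**Figure D1:**
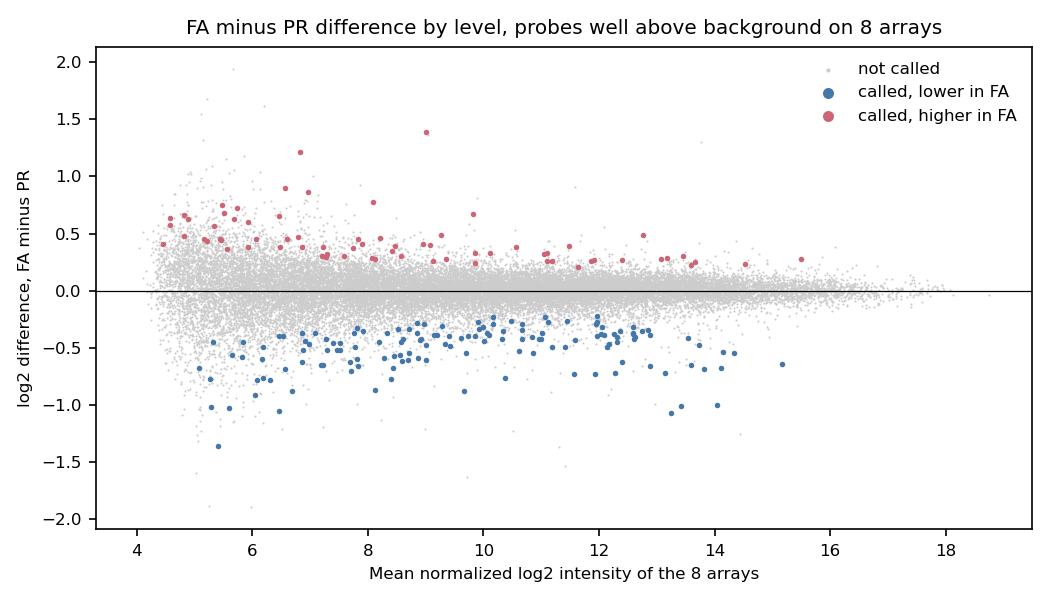
Difference between FA and PR mice (log2, vertical axis) against the mean normalized log2 intensity of the 8 arrays (horizontal axis) for the 26542 probes well above background on all 8 arrays. Coloured points are the 141 probes called lower and the 70 called higher in FA, and most of the other points lie close to 0.

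Among RefSeq messenger RNA probes well above background on all 8 arrays, the largest falls were those of Trpm1, Ston1 and Nog, beside a probe named Gcm1 that is taken up with the repeat probes. Dimmer probes such as that of Ylpm1 fell more and are described further on. Trpm1, a cation channel known from retinal bipolar cells and melanocytes, is read by a probe at chr7:71371607-71371666 of the mm9 build. It measured 7.42, 6.93, 6.82 and 6.81 in the PR mice and 5.93, 5.97, 5.80 and 6.06 in the FA mice. All 4 FA mice lay below all PR mice, and the difference was −1.06 ± 0.15 (SE, limma adjusted p = 0.0273). Its probe holds a run of GAA triplets, a feature described further on.

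Ston1 encodes an adaptor of clathrin-mediated endocytosis, and its probe lies at chr17:89044756-89044815. It measured 6.04, 6.01, 5.96 and 6.45 in the PR mice and 5.20, 5.11, 5.08 and 4.96 in the FA mice. The groups did not overlap, and the highest value was that of mouse PR4. The difference was −1.03 ± 0.13 (limma adjusted p = 0.0166).

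Nog encodes noggin, a secreted inhibitor of bone morphogenetic proteins, and its probe lies at chr11:89162849-89162908. It measured 8.69, 8.58, 8.38 and 8.58 in PR and 7.55, 7.80, 7.72 and 7.67 in FA. The gap between the groups was wider than the range within either, and the difference was −0.87 ± 0.11 (limma adjusted p = 0.0145). The CD mean was 8.33.

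Cbl, an E3 ubiquitin ligase of activated receptor tyrosine kinases, measured 8.81, 8.81, 8.70 and 8.79 in PR. Its FA values were 8.21, 7.90, 7.82 and 8.08. The fall of 0.78 came with a CD mean of 8.03, within the range of the FA mice (limma adjusted p = 0.0124). Ankrd11, a chromatin-associated cofactor, measured 12.07, 11.88, 11.85 and 11.92 in PR against 11.44, 11.21, 11.07 and 11.09 in FA. The groups were well apart, with a difference of −0.73 ± 0.08, while a second probe of Ankrd11 differed by −0.18 and was not called. The remaining large falls were those of Gse1 (−0.78), the olfactory receptor gene Olfr1415 (−0.78), the kallikrein protease gene Klk10 (−0.77), Isoc2a (−0.71) and RP23-269N23.3 (−0.67), with limma adjusted p from 0.0124 to 0.0475. The other probe of RP23-269N23.3 differed by 0.08. Probes named Gcm1 (−0.9999) and Dcc (−0.68) were also among the 12 largest falls, and they are taken up with the GAA repeats below.

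Among rises of the same kind of probe, Kcnk15, a potassium channel of the tandem-pore family, had the largest difference. It measured 6.71, 6.44, 6.47 and 6.50 in PR and 7.67, 7.35, 7.57 and 6.98 in FA at chr2:163684551-163684610. All FA mice exceeded all PR mice, by 0.86 ± 0.16 on average (limma adjusted p = 0.0475). Mouse FA4 lay nearest to the PR mice.

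Ap1g2, a gamma subunit of the AP-1 adaptor of vesicle traffic, measured 6.10, 6.14, 6.16 and 6.13 in PR. Its FA values were 6.98, 6.60, 6.81 and 6.76, a rise of 0.66 ± 0.08 (limma adjusted p = 0.0138). The PR mice were almost identical and lay below every FA mouse. Tnfrsf13c, the receptor of B cells for the survival factor BAFF, measured 5.24, 5.35, 5.48 and 5.42 in PR and 5.82, 6.16, 6.15 and 5.89 in FA. The groups did not overlap, and the rise was 0.63 ± 0.10 (limma adjusted p = 0.0361). Its CD mean of 5.88 was close to the FA level.

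Gpr151, an orphan receptor of habenular neurons, measured 5.12, 5.11, 4.96 and 5.04 in PR and 5.53, 5.67, 5.66 and 5.65 in FA. The FA values were tight and lay above all PR values, with a rise of 0.57 ± 0.06 (limma adjusted p = 0.0124). In the list of thalamic and habenular markers 1 of 14 genes was called, Gpr151 itself, and the median of the list was −0.04 (0.03 without FA2).

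The other large rises were E330017A01Rik (0.75), 5430416O09Rik (0.64), the muscle potassium channel Kcna7 (0.60), the receptor kinase Grk6 (0.45), Efhb (0.45), the butyrophilin Btn2a2 (0.43), Krtap5-2 (0.41) and the SR protein kinase Srpk3 (0.40). Most of them were dim, since the PR means ran from 4.26 for 5430416O09Rik to 8.87 for Srpk3 against a mean over all genes of 10.003. For Kcna7 a brighter probe differed by −0.25 and was not called, and for Grk6 the other probe differed by −0.04. The rises of Kcna7 and Grk6 therefore belong to 1 probe of each.

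**Figure D2:**
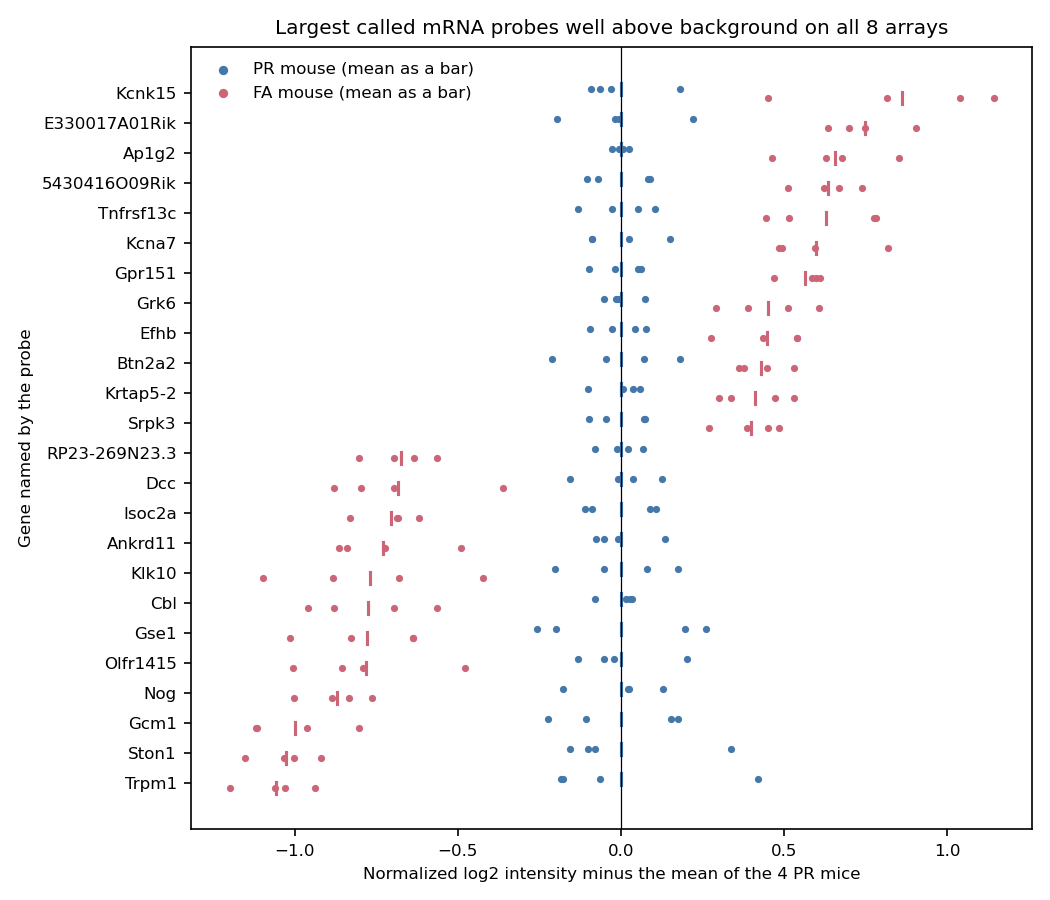
Normalized log2 intensity of every PR and FA mouse minus the mean of the 4 PR mice (horizontal axis) for the 12 largest called rises and the 12 largest called falls among RefSeq messenger RNA probes well above background on all 8 arrays, 1 probe a gene (vertical axis). Bars mark group means, from −1.06 for Trpm1 to 0.86 for Kcnk15, and the groups do not overlap for any of these genes because the choice required it.

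Probes changed at least 2-fold without regard to accession or brightness were mostly predicted or uncharacterized transcripts. LOC100048568 rose from 8.61, 8.32, 8.19 and 8.12 in PR to 10.06, 9.69, 9.55 and 9.49 in FA, by 1.39 ± 0.23. The non-coding transcript 1700022A21Rik rose from 6.26, 5.92, 6.24 and 6.42 to 7.63, 7.70, 7.16 and 7.20, by 1.21 ± 0.15. Both were apart in all mice. Gm5731 (1.09) and B230214N19Rik (1.03) also rose by this much, and Gm3133 can be given only as a bound.

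Ylpm1, a nuclear protein that binds protein phosphatase 1, fell from 6.56, 6.08, 5.69 and 6.48 to 4.47, 4.42, 4.59 and 5.09, by 1.56 on the log2 scale (limma adjusted p = 0.0389). Its groups did not overlap, although the PR mice were spread widely. This probe was well above background in 4 PR mice and 2 FA mice, and a brighter probe of Ylpm1 differed by 0.09. Falls at least 2-fold were also found for 2310043M15Rik (−1.36), 4930519H02Rik (−1.09), 4933405D12Rik (−1.02) and 4930442P07Rik (−1.02), and for the repeat probes Gm9444 (−1.07) and LOC100045113 (−1.01). Pklr, the liver and red cell pyruvate kinase, was well above background in all 4 PR mice and in no FA mouse. Only a bound can be given there, at least 1.36-fold lower in FA (limma adjusted p = 0.0382). The transcript ENSMUST00000067770 was well above background in 3 PR mice and no FA mouse and was at least 1.34-fold lower in FA. 1700080F18Rik was above background in 2 PR mice and in no FA mouse, too dim for a fold. Gm3133 was not well above background in any PR mouse and reached it in 1 FA mouse, so its rise is at least 1.00-fold.

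When a gene had further probes, these often moved less. Of the probes called lower, 62 had other probes of the same gene. The others were counted anew for each called probe, so a second called probe of a gene is among them. In 59 of these 86 counts the other probe also had a negative difference. The median was −0.41 for the called probes and −0.11 for the means of their other probes. For the probes called higher, 18 of 25 other probes, counted in the same way, were positive, with medians of 0.31 and 0.12. In 6 genes 2 probes were called the same way. These were the chromatin reader Zmynd8 (−0.55 and −0.45), the zinc finger gene Zbtb11 (−0.40 and −0.33), the guanine exchange factor Trio (−0.39 and −0.32), the nucleosome binding protein Hmgn2 (0.28 and 0.30), and Gm6940 and Gcm1, both read by repeat probes.

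Genes of folate metabolism were hardly changed. Of 31 genes for folate uptake and the folate cycle, 1 was called higher and none lower (11 had a negative difference). The median difference was 0.02, and from 0.01 to 0.06 under the alternatives. The mean of the list was 9.70 to 9.72 on the PR arrays and 9.74 to 9.79 on the FA arrays, so all FA mice were above all PR mice, by a small amount. The gene called was Mthfsd, a protein with a domain related to methenyltetrahydrofolate synthetase. It measured 9.62, 9.74, 9.71 and 9.67 in PR and 9.97, 10.03, 9.99 and 10.06 in FA. The rise was 0.33 ± 0.04 (limma adjusted p = 0.0138) with no overlap, and it passed in each of the fits that left out 1 mouse (adjusted p from 0.0206 to 0.0442). It did not pass in the limma fit with the replicate block (adjusted p = 0.0676) or in the methods' Tukey test (adjusted p = 0.0519). The other probe of Mthfsd, which targets another transcript, differed by −0.03.

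Fpgs, which adds the glutamate tail that retains folate in cells, measured 9.82 to 9.97 in PR and 10.03 to 10.17 in FA, a difference of 0.17 (limma adjusted p = 0.162). Mthfs, which returns formyltetrahydrofolate to the cycle, differed by 0.24 (adjusted p = 0.242). Mtrr, which reactivates methionine synthase, differed by 0.38 with overlapping groups (adjusted p = 0.255). None of these passed the test.

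Neither the methionine cycle nor the DNA methylation machinery held a called gene (limma), and 2 of 30 and 9 of 34 genes had an unadjusted p under 0.05. In the list of 30 genes of the methionine cycle and transsulfuration, the groups did not overlap at 1 gene, Enoph1, and the median was 0.02. Among 34 genes of DNA methylation and its readers, 4 were lower and 5 higher without overlap (against 6.31% and 7.81% of all genes), and the median was −0.01. Tet1, which oxidizes methylcytosine, measured 8.27, 8.57, 8.44 and 8.46 in PR and 8.21, 8.12, 7.95 and 8.15 in FA, a difference of −0.33 (limma adjusted p = 0.120). The FA mice lay below the PR mice, but the test was not passed. For Uhrf1, which guides maintenance methylation, the difference was 0.38 (adjusted p = 0.161). In the list of 33 genes of purine and pyrimidine synthesis the median was 0.06 and no gene was called (6 at an unadjusted p under 0.05, limma). The 36 genes of the amino acid deprivation response had a median of −0.00, with none called and 6 at an unadjusted p under 0.05.

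Chromatin modifiers were lower on average, by little. None of 75 genes was called by limma (12 at an unadjusted p under 0.05), 11 were lower and 1 higher without overlap (against 6.31% and 7.81% of all genes), and the median was −0.03. The mean of the list was 10.78 to 10.82 in PR and 10.71 to 10.77 in FA. The smallest p belonged to Kdm5a, a histone H3K4 demethylase, at 10.26, 10.24, 10.16 and 10.27 in PR and 9.99, 10.03, 9.83 and 10.04 in FA (difference −0.26, limma adjusted p = 0.063). Kdm4a (−0.19), Hdac4 (−0.23) and Chd2 (−0.38) followed, with adjusted p from 0.090 to 0.112.

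Among 54 imprinted genes, whose expression depends on parental origin, none was called by limma (11 at an unadjusted p under 0.05), 7 were lower and 2 higher without overlap (against 6.31% and 7.81% of all genes), and the median was −0.02. Airn (−0.34, limma adjusted p = 0.057), Meg3 (0.32, 0.059), Peg12 (0.24, 0.063) and Peg3 (−0.49, 0.082) had the smallest p. Peg3 measured 11.86, 11.70, 11.75 and 11.66 in PR and 11.47, 11.24, 11.11 and 11.22 in FA.

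The list of long non-coding host genes of small nucleolar RNAs and microRNAs also holds the nuclear RNAs Neat1 and Malat1. This list had the highest median of the pathway lists, 0.18 over 20 genes. All FA mice were above all PR mice at 9 of these genes and below at 2 (against 7.81% and 6.31% of all genes), and 3 had a negative difference. At an unadjusted p under 0.05 there were 12 of 20 (against 16.7% of all genes). The mean of the list was 9.34 to 9.49 on the PR arrays and 9.57 to 9.69 on the FA arrays. The gene called among them by its brightest probe was Neat1, the scaffold RNA of nuclear paraspeckles. It measured 12.46, 12.67, 12.51 and 12.39 in PR and 13.16, 12.90, 12.96 and 12.97 in FA at chr19:5842564-5842623. The rise was 0.49 ± 0.07 (limma adjusted p = 0.0313) without overlap, and it no longer passed when FA2, FA3, FA4, PR1, PR3 or PR4 was left out (adjusted p from 0.0583 to 0.0732).

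Malat1, a nuclear speckle RNA from the neighbouring locus, measured 9.36, 9.60, 9.61 and 9.27 in PR and 9.95, 10.33, 9.91 and 9.996 in FA, a difference of 0.59 ± 0.13 (limma adjusted p = 0.066). Meg3 measured 14.69, 14.71, 14.43 and 14.59 in PR and at least 14.88 in FA. Snhg1, which carries small nucleolar RNAs in its introns, differed by 0.19 (adjusted p = 0.109). Each of these was higher in all FA mice than in all PR mice, although none passed the test. A dimmer probe of 1810032O08Rik, now the host gene Snhg16, measured 6.21 to 6.53 in PR and 6.72 to 6.88 in FA, a rise of 0.45 (limma adjusted p = 0.0381), and its brightest probe differed by 0.14. In CD mice the means were 12.11 for Neat1, 9.29 for Malat1 and 13.96 for Meg3.

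Insulin and insulin-like growth factor (IGF) signalling showed the opposite sign. Of 40 genes, 8 were lower and 1 higher in FA without overlap (against 6.31% and 7.81% of all genes), 30 had a negative difference and the median was −0.08 (−0.05 without FA3). All FA mice were below all PR mice in the mean of the list, 10.51 to 10.58 against 10.61 to 10.65. The called gene was Irs2, the adaptor that links insulin and IGF receptors to phosphatidylinositol 3-kinase. It measured 13.88, 13.74, 13.66 and 13.69 in PR and 13.48, 13.22, 13.20 and 13.41 in FA. The fall was 0.42 with a standard error of 0.08 (limma adjusted p = 0.0475).

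Pik3ca, the catalytic subunit of that kinase, measured 10.02, 9.98, 10.08 and 10.14 in PR and 9.81, 9.63, 9.57 and 9.74 in FA (difference −0.37, limma adjusted p = 0.058). Igf1r, the receptor, measured 12.14, 12.31, 12.19 and 12.29 in PR and 11.96, 11.94, 11.84 and 12.12 in FA (−0.27, adjusted p = 0.086). For Igf2, a growth factor made in the meninges and choroid plexus, PR values were 7.68, 7.28, 7.25 and 7.16 and FA values 7.02, 6.99, 6.74 and 6.90 (−0.43, adjusted p = 0.141). These 4 genes were lower in each FA mouse than in each PR mouse, and Irs2 passed the threshold while the other 3 did not. The median of the list stayed negative under all alternatives tried, from −0.10 to −0.05.

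Glucocorticoid-responsive genes had the lowest median of all lists, −0.16 over 28 genes, of which 23 had a negative difference. No gene was called by limma (10 at an unadjusted p under 0.05), and 5 were lower and 1 higher without overlap (against 6.31% and 7.81% of all genes). The cell cycle inhibitor Cdkn1a measured 11.05, 11.00, 10.95 and 11.02 in PR and 10.65, 10.76, 10.84 and 10.63 in FA (−0.29, limma adjusted p = 0.051). Zbtb16 (−0.43), Pdk4 (−0.26) and Klf9 (−0.14) followed, with adjusted p from 0.141 to 0.190. The mean of the list overlapped between groups, at 11.59 to 11.84 in PR and 11.46 to 11.66 in FA. In the unfolded protein response, 22 of 24 genes had a negative difference and the median was −0.08. Of these 24 genes, 4 were lower and none higher without overlap (against 6.31% and 7.81% of all genes), and none was called (6 at an unadjusted p under 0.05, limma). The mean of that list also overlapped, at 12.24 to 12.40 in PR and 12.20 to 12.28 in FA. Edem1 (−0.22), Sdf2l1 (−0.34), Xbp1 (−0.20) and Manf (−0.21) had the smallest p there, with adjusted p from 0.160 to 0.228.

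Of the proteasome genes, 1 was called in each direction. Psmd9, an assembly chaperone, measured 9.73, 9.67, 9.78 and 9.73 in PR and 9.98, 9.96, 10.03 and 9.94 in FA (rise 0.25, limma adjusted p = 0.0372), while its other probe differed by −0.05. Psme4, the activator PA200, measured 8.85, 8.92, 8.87 and 8.87 in PR and 8.61, 8.59, 8.41 and 8.56 in FA (fall of 0.34, adjusted p = 0.0446), while its other probe differed by 0.07. The list as a whole was slightly higher, with a median of 0.05 over 46 genes and a mean of 12.93 to 12.97 in PR and 12.98 to 13.04 in FA. Psma7, a subunit of the catalytic core, differed by 0.34 (adjusted p = 0.052).

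Ion channel lists differed in their counts, and the differences between lists were not tested. The list of sodium and calcium channels had 37 genes with a median of −0.07, of which 5 were lower and none higher without overlap (against 6.31% and 7.81% of all genes), and 2 were called lower. Of 81 potassium channel genes, 4 were lower and 5 higher without overlap, the median was −0.00, and Kcnk15 was called higher and none lower by the brightest probe. Nalcn, the sodium leak channel that sets resting potential, measured 10.33, 10.30, 10.22 and 10.11 in PR and 9.86, 9.76, 9.66 and 9.91 in FA (−0.44 ± 0.08, limma adjusted p = 0.0459). Scn11a, a sodium channel best known from sensory neurons, measured 6.92, 7.07, 7.11 and 7.09 in PR and 6.67, 6.64, 6.62 and 6.78 in FA (−0.37, adjusted p = 0.0323). Both were lower in all FA mice than in all PR mice. A further probe of Scn1a, the sodium channel of fast-spiking interneurons, was called lower (−0.29), and the brightest probe of that gene was not (−0.19).

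In the synaptic vesicle release list, 7 of 44 genes were lower and 1 higher without overlap (against 6.31% and 7.81% of all genes), with a median of −0.02. Of 35 genes of the postsynaptic density none was called by limma (4 at an unadjusted p under 0.05), none was without overlap, and the median was −0.04. Unc13c, a vesicle priming factor of the cerebellum, fell from 10.96, 10.98, 10.82 and 10.74 to 10.53, 10.27, 10.22 and 10.37, by 0.53 (limma adjusted p = 0.0361). Sv2c, a vesicle glycoprotein of basal ganglia neurons, fell from 7.24, 7.32, 7.20 and 7.29 to 6.996, 6.92, 6.72 and 6.93, by 0.37 (adjusted p = 0.0499). The other probes of Sv2c averaged −0.04. The active zone scaffold Bsn (−0.37, adjusted p = 0.056) and the fusion ATPase Nsf (−0.25, 0.086) were also lower in all FA mice than in all PR mice. Grin3a, an NMDA receptor subunit that lowers calcium entry, fell from 8.17, 8.09, 8.06 and 8.05 to 7.68, 7.71, 7.78 and 7.77, by 0.36 (adjusted p = 0.0228), and was the called gene of 27 glutamate receptor genes. Of 36 genes of GABA and glycine synapses none was called by limma (6 at an unadjusted p under 0.05), the median was −0.04, and the mean of the list was 11.91 to 11.96 in PR and 11.86 to 11.89 in FA.

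Cadherins and protocadherins, adhesion molecules that give neurons their surface identity, were lower at 12 of 66 genes and higher at none without overlap (against 6.31% and 7.81% of all genes). The median was −0.07 and the mean of the list was 9.36 to 9.41 in PR and 9.25 to 9.34 in FA. Pcdha8, of the clustered alpha family, fell from 10.94, 10.85, 10.78 and 10.81 to 10.58, 10.46, 10.43 and 10.54, by 0.35 (limma adjusted p = 0.0248). The other probe of Pcdha8 differed by −0.05. Pcdha12 (−0.33), Pcdha9 (−0.33) and Pcdh11x (−0.36) did not pass, with adjusted p from 0.087 to 0.128. A probe of Pcdhac2 was called lower (−0.42) and another probe of it differed by 0.11. Members of the alpha cluster share exons and close sequence, so their probes may read the same transcripts.

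Single called genes stood in several other lists. Srebf2, the regulator of cholesterol synthesis genes, fell by 0.40 (limma adjusted p = 0.0446), while its 31-gene list had a median of −0.00 and no other called gene. Tap1, the peptide transporter of antigen presentation, rose from 5.29, 5.46, 5.36 and 5.39 to 5.69, 5.74, 5.76 and 5.78, by 0.36 (adjusted p = 0.034). Igtp (0.22) of the same interferon list was higher in all FA mice than in all PR mice without passing, and the list median was 0.06. Sfrs11, a splicing factor now named Srsf11, fell by 0.49 (adjusted p = 0.0132) within a list of 122 splicing genes whose median was 0.00. Bpgm, the red cell and brain enzyme of bisphosphoglycerate, rose by 0.27 (adjusted p = 0.0475) while the list of 12 red cell genes overlapped between groups. Hist1h3d rose by 0.23, Zfp462 fell by 0.31 and a probe of Kidins220, a neurotrophin receptor partner, fell by 0.54, where the other probes of Kidins220 averaged −0.03. A dimmer probe of Atp5l rose by 0.23. The brightest probe of Atp5l differed by 0.16, and the 4 other probes of the gene, with the brightest among them, averaged 0.03. Among 34 immediate early genes, none was called by limma (7 at an unadjusted p under 0.05), and Klf2 had the smallest p (−0.44, adjusted p = 0.053).

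**Figure D3:**
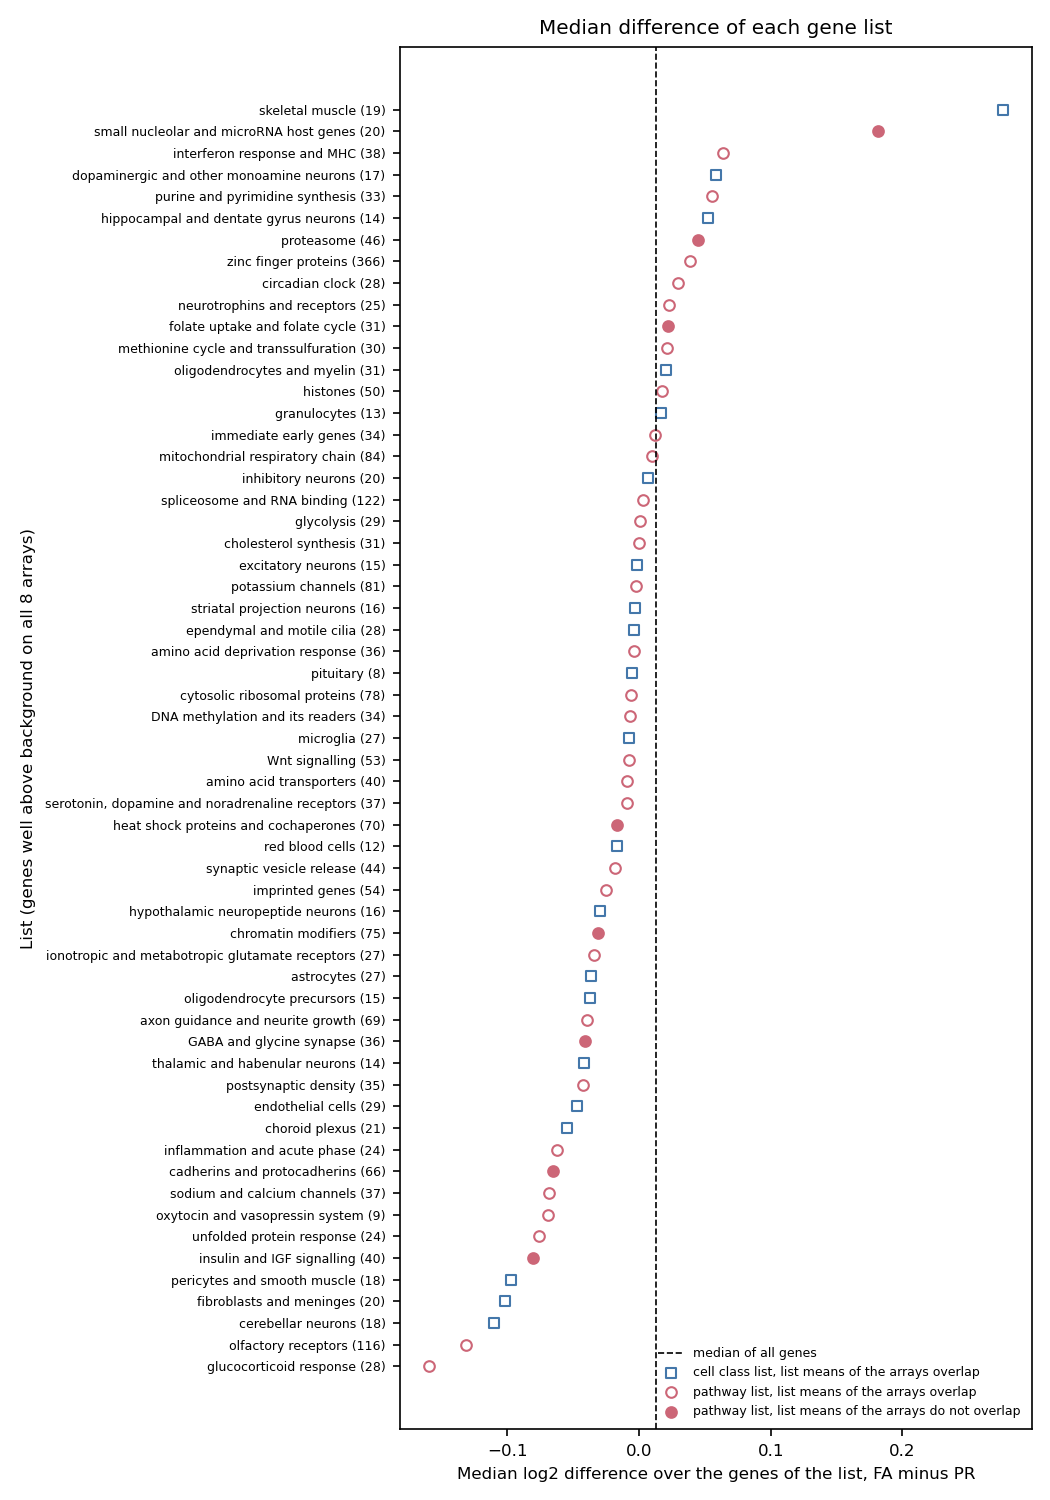
Median log2 difference between FA and PR over the measured genes of each of 59 lists (horizontal axis), with the number of genes in brackets. Squares are cell class lists and circles pathway lists, filled where the list means of the 4 FA arrays and the 4 PR arrays do not overlap, and the dashed line is the median of all genes. The list of host genes (0.18) and the list of glucocorticoid response genes (−0.16) stand farthest to each side among pathway lists.

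Lists of the main brain cell classes overlapped between FA and PR and held no called gene for excitatory neurons, inhibitory neurons, astrocytes, oligodendrocytes, their precursors or microglia, with medians from −0.04 to 0.02 (−0.06 for excitatory neurons without FA2) and 1 to 3 genes per list at an unadjusted p under 0.05 (limma). Vascular and meningeal lists had lower medians, also with no called gene, and 8 of 20 and 4 of 18 genes at an unadjusted p under 0.05 for meninges and pericytes. In fibroblasts and meninges 17 of 20 genes had a negative difference, 6 were lower and none higher without overlap (against 6.31% and 7.81% of all genes), and the median was −0.10. The mean of that list was 10.70 to 10.73 in PR and 10.51 to 10.76 in FA, where mouse FA1 lay above every PR mouse. In pericytes and smooth muscle 15 of 18 were negative, 3 were lower and none higher without overlap (against the same shares), and the median was −0.10. List means there were 9.64 to 9.70 in PR and 9.55 to 9.66 in FA. In endothelial cells 18 of 29 were negative, 3 were lower and 1 higher without overlap, the list means overlapped, and the median was −0.05. Fn1, which encodes fibronectin, measured 12.22 to 12.46 in PR and 11.89 to 12.19 in FA (−0.28, limma adjusted p = 0.109), and the pericyte gene Rgs5 measured 10.92 to 11.21 in PR and 10.64 to 10.83 in FA (−0.34, adjusted p = 0.063). The list of cerebellar neurons had 15 of 18 genes with a negative difference and a median of −0.11, with list means of 12.29 to 12.36 in PR and 12.06 to 12.32 in FA. Mouse FA3 had the lowest list mean, and without it the median was −0.02.

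Marker lists of some other tissues and regions were spread between mice. The list of 19 skeletal muscle genes had a mean of 9.11 in mouse FA1, 7.89 to 7.96 in the other FA mice and 7.73 to 7.92 in PR mice. Myh1, a fast muscle myosin, measured 8.19 in FA1 and 5.34 to 5.70 in the other FA mice, and 4.98 to 5.39 in PR. The median of the muscle list fell from 0.28 to 0.07 when FA1 was left out. FA1 also had the highest value of Kcna7, and the differences without FA1 were 0.53 for Kcna7 and 0.38 for Srpk3. Kcna7 no longer passed when any 1 of the 8 mice was left out (adjusted p from 0.0618 to 0.105), and Srpk3 passed without FA2 (0.036) but not without any of the other 7 (0.053 to 0.0855). Granulocyte genes varied in both groups, from 6.61 to 7.89 in PR and 6.41 to 7.71 in FA. Genes of monoamine neurons, of hypothalamic neuropeptide neurons and of the pituitary were more spread in FA mice (8.28 to 9.18, 10.45 to 11.08 and 8.58 to 9.16) than in PR mice (8.68 to 8.85, 10.77 to 10.88 and 8.91 to 8.94). The part of these tissues in the results above was not tested.

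A group of probes defined by sequence had a larger median difference than any of the 59 gene lists. Several probes with large falls hold runs of the triplet GAA, so all 60-base probes were searched on the printed strand for GAAGAAGAAGAAGAA, that is 5 units or 15 bases. The search was made after the values were seen, and what follows is a description. The probe sequences below come from the array files, 5′ to 3′, with the longest GAA run in capitals. They are shown as examples of large called falls, of probes named for a gene that lies elsewhere, and of shorter runs with smaller differences. Positions are those of mm9 in the array files.

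Gm9444, chr7:146146935-146146994, minus strand: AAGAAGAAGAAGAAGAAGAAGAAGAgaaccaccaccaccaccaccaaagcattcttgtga
LOC100045113, chr10:3971364-3971414, minus strand: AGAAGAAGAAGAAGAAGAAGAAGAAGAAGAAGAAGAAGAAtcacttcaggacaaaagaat
Gcm1, chr7:123731567-123731626, minus strand: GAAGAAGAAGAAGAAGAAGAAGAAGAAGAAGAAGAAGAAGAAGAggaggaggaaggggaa
Gm6940, chr1:186475396-186475455, plus strand: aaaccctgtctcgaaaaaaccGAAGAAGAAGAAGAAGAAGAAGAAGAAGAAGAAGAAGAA
Pigr, chrX:118770552-118770611, minus strand: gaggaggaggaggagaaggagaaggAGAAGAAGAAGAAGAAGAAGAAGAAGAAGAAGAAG
Ermn, chr2:57900470-57900529, minus strand: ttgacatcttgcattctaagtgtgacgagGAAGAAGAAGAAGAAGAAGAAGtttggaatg
Pnma2, chr14:67535939-67535998, plus strand: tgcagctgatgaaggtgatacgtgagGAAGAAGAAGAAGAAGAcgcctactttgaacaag
Sec61b, chr4:47495923-47495982, plus strand: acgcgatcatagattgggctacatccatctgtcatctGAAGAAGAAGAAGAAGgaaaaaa

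The run was found in 51 probes well above background on all 8 arrays. All 51 had a negative difference, from −1.37 (a probe of Gm2488, not called, limma adjusted p = 0.149) to −0.01, with a median of −0.51 against 0.01 for all such probes. At 33 of them all FA mice lay below all PR mice and at none above (against 6.71% lower for all probes), and 13 were called lower and none higher (against 0.531%). They made up 13 of the 141 called falls. Since these probes share sequence, they are not independent measurements.

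The median deviation of the GAA probes from the PR mean was 0.02, 0.17, −0.14 and −0.03 in the PR mice and −0.37, −0.49, −0.74 and −0.52 in the FA mice. In CD mice it was −0.10, −0.08, 0.04 and −0.00. The FA mice were thus apart from both other groups, and FA3 was the lowest. All probes together had medians from 0.01 to 0.02 on the FA arrays.

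The difference grew with the length of the run. It had a median of 0.01 over 91 probes with 9 to 11 bases of the repeat, −0.16 over 18 probes with 12 to 14 bases, −0.32 over 10 probes with 15 to 20, −0.46 over 13 probes with 21 to 30 and −0.57 over 28 probes with more than 30. The probes with long runs were also bright, since the median PR level rose from 9.45 at 15 to 20 bases to 13.9 above 30 bases. The reverse repeat TTC was held by 1 probe, with a difference of −0.00. Of the other repeats, GGA gave a median of −0.14 over 24 probes, GA −0.31 over 9, CAG −0.17 over 7 and TGG −0.28 over 2. The medians were 0.02 for CA (33 probes), −0.04 for GT (73), −0.03 for TC (8), −0.02 for CAA (5), −0.01 for CCA (4), 0.05 for TTG (10), 0.11 for CTG (5) and 0.23 for TCC (1). Different repeats can lie in the same probe.

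**Figure D4:**
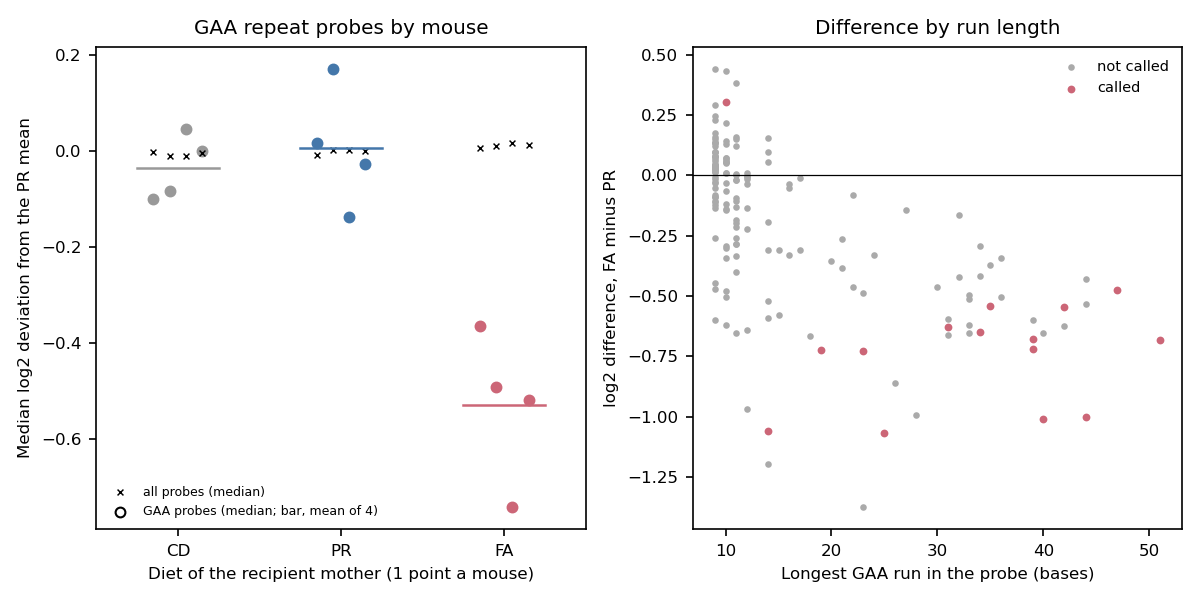
Left, median log2 deviation from the PR mean (vertical axis) of the 51 GAA repeat probes (circles, with the mean of 4 mice as a bar) and of all probes (crosses) in each CD, PR and FA mouse. Right, log2 difference FA minus PR (vertical axis) against the length of the longest GAA run in bases (horizontal axis) for probes with at least 9 bases of it, with called probes in colour, and differences lie below 0 for all probes from 15 bases on.

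Other probes of the same genes mostly did not follow the GAA probes. The Ermn probe, for a cytoskeletal protein of oligodendrocytes, differed by −0.46 and the other Ermn probe by 0.00. For Pnma2 the values were −0.31 and 0.08, for Rhox8 −0.43 and −0.00, for Gab3 −0.29 and −0.00, and for the netrin receptor gene Dcc −0.68 and 0.22. Gcm1, a transcription factor of the placenta, was the exception, with −0.9999 and −0.72 at GAA probes and −0.50 at its other probe, which was not called and itself holds 10 bases of the repeat. The probes named Gcm1, Dcc and Pigr are placed by the array files on other chromosomes than these genes, at chr7 for Gcm1 and Dcc and at chrX for Pigr. Their values are therefore given for the probe and not for the gene.

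Called falls were found at longer genes than called rises. Gene length was taken from a RefSeq table of the GRCm38 build, as the span of a gene from start to end, for 98.6% of the measured genes with a RefSeq messenger RNA accession. The median span was 65826 bases for 55 of 59 called falls and 7864 bases for 30 of 31 called rises, against 22504 bases over all such genes. Spans were matched by accession, so the repeat probes named Dcc, Gcm1 and Pigr carry the spans of genes on other chromosomes. Genes were divided into 5 equal classes by length, with 2990 genes each in the longest and the shortest. Over all 17728 measured genes, with or without a length class, 0.434% were called lower and 0.248% higher, and 6.31% were lower and 7.81% higher without overlap. In the longest class (from 71073 bases) 26 were called lower and 2 higher, 348 were lower and 129 higher without overlap, and the median difference was −0.03. In the shortest class (up to 7206 bases) 7 were called lower and 13 higher, 125 were lower and 257 higher without overlap, and the median was 0.02. The shifts were small in each mouse and largest in FA3, at −0.07 in the longest and 0.05 in the shortest class, where the other FA mice ranged from −0.03 to −0.00 and from 0.00 to 0.01. PR mice ranged from −0.03 to 0.02 in the longest class and overlapped the other FA mice. Without FA3, 3 genes of the longest class were called lower and none higher, 385 were lower and 200 higher without overlap, and the median was −0.02. In the shortest class the counts without FA3 were 0 and 1 called and 199 and 300 without overlap, with a median of 0.01. Groups separate more easily with fewer FA mice, so the counts without overlap cannot be set against those of all mice.

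**Figure D5:**
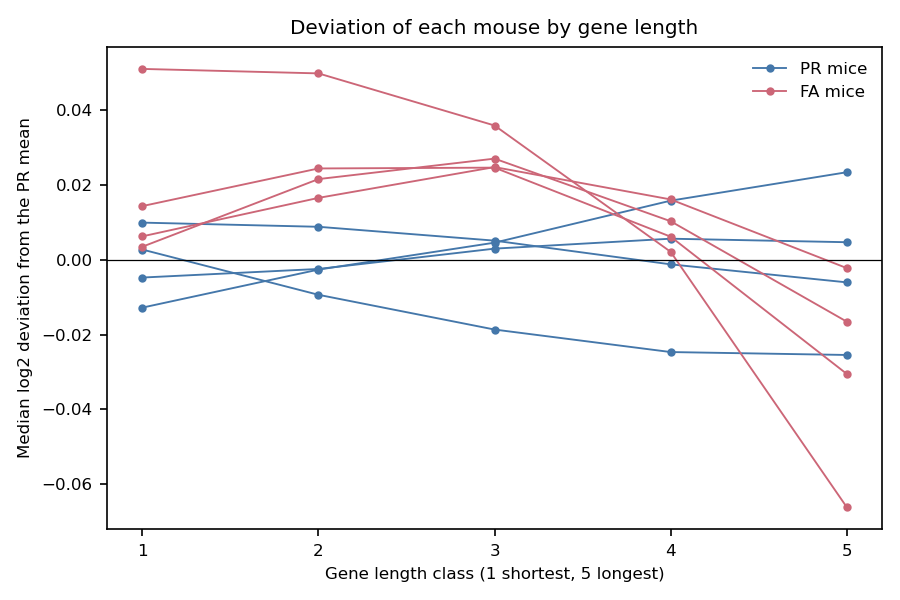
Median log2 deviation from the PR mean (vertical axis) of genes in 5 classes of gene length (horizontal axis, 1 shortest and 5 longest) for each PR and FA mouse. Mouse FA3 runs from 0.05 in the shortest to −0.07 in the longest class, while the other FA mice lie between −0.03 and 0.03.

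Further lists held genes on both sides. In Wnt signalling 9 of 53 genes were lower and 5 higher without overlap (against 6.31% and 7.81% of all genes), the median was −0.01 (0.03 without PR1) and none was called by limma (14 at an unadjusted p under 0.05), with Dvl3, a scaffold of the Wnt receptor complex, at −0.51 (adjusted p = 0.0536). In the list of 70 heat shock proteins and cochaperones 6 were lower and 6 higher without overlap, shares close to those of all genes. The mean of that list was 11.61 to 11.63 in PR and 11.55 to 11.58 in FA, while the mitochondrial chaperone Hspa9 was higher in each FA mouse than in each PR mouse (0.25, limma adjusted p = 0.0566). The amino acid transporter Slc1a5 differed by 0.41 (adjusted p = 0.0689) and the clock output gene Dbp by 0.34 (adjusted p = 0.0642), both without overlap.

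Large gene families were measured too. Of 116 olfactory receptor genes well above background, 12 were lower and 6 higher in FA without overlap (against 6.31% and 7.81% of all genes), and 72 were negative. Their median was −0.13 at low levels (−0.04 with normexp), with list means of 6.00 to 6.08 in PR and 5.84 to 6.06 in FA. Of 366 zinc finger genes, 21 were lower and 32 higher without overlap, again close to the shares of all genes, and the median was 0.04. Cytosolic ribosomal proteins (78 genes, median −0.01), the mitochondrial respiratory chain (84 genes, 0.01) and glycolysis (29 genes, 0.00) had 0 genes called by their brightest probe (limma), with 6, 5 and 5 genes at an unadjusted p under 0.05.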

How the data were processed

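Whole-brain RNA of male mice was labelled with Cy3 and hybridized to 1 Agilent 4x44K array per mouse. The authors scanned the arrays and deposited spot intensities from Feature Extraction 11.0.1.1, corrected for background within the array and annotated to mm9. They also deposited a table of intensity per probe after qspline normalization, on the linear scale, with column medians from 141 to 141.7, which was used as an alternative. The methylation arrays were not analysed here.

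Of 43020 non-control spots, outlier spots were left out (77 probe values missing, 34 of them on the FA and PR arrays). The processed signal was normalized by qspline rewritten in R 4.3.3 (100 quantiles, 5 iterations), log2 was taken and spots of a probe were averaged, giving 39429 probes. The 3 diets were fitted together in limma 3.58.1, which shares 1 estimate of spread, and the script was tested on simulated data. With 4 arrays a diet, their number sets the precision. A probe was well above background when at least 50% of its spots carried that flag. Symbols are those of the files, and 66.1% of probes matched a current RefSeq symbol.

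The text names the 12 largest rises and falls among called RefSeq messenger RNA probes well above background on all 8 arrays, without overlap, 1 probe a gene, all called probes at least 2-fold changed, called genes of the lists and up to 4 genes of a described list with the smallest p. The 59 lists (21 cell class, 38 pathway), the members and the rules were chosen with earlier results of these data known, and the GAA repeat after seeing the values. No list was tested as a set. Alternatives were 75th percentile scaling, quantile normalization, normexp (offset 50), the deposited table, outlier spots kept, filters on dim probes, a replicate block, another variance model, the 8 arrays alone, the methods' Tukey test and leaving out each mouse.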

Additional observations from a re-analysis of the deposited data

Results flagged for a closer look

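Single mice stood far from the other 3 of their group, with a gap to the nearest of them above Dixon's limit for 4 values, in 12 of 248 groups of values examined. Chance flags about 1 in 20 groups. Among genes, Ston1 was at 6.453 in PR4 (others 5.959 to 6.036), Gpr151 at 5.531 in FA1 (5.647 to 5.67), Gm3133 at 3.164 in FA2 (3.742 to 3.831), Srebf2 at 9.436 in PR2 (9.65 to 9.689) and Scn11a at 6.919 in PR1 (7.074 to 7.105). Among list means, skeletal muscle was at 9.111 in FA1 (7.89 to 7.96) and the small nucleolar and microRNA host genes were at 9.69 in FA2 (9.571 to 9.583). Glutamate receptors were at 10.24 in PR3 (10.29 to 10.3) and potassium channels at 9.846 in FA3 (9.896 to 9.897). The neurotrophin list was at 10.26 in PR2 and at 10.23 in FA2, with the other mice of these groups at 10.32 and 10.3. The number of spots well above background was 33478 in PR4 (31270 to 31500).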

How the results depend on the processing

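No called direction among 61 named genes reversed under any alternative, but 542 of 1147 gene values lost the call. Calls lower and higher in FA numbered 159 and 93 as reported. They were 331 and 233 when only probes well above background on all 8 arrays were tested, 311 and 208 with at least 4 arrays, 277 and 164 with a trended robust variance, and 71 and 32 with the 8 arrays alone. Scaling to the 75th percentile gave 24 higher and moved the median of all genes to 0.00382. The methods' Tukey test gave 0 lower and 1 higher (3325 at an unadjusted p under 0.05, against 5557 by limma). Leaving out 1 mouse gave 19 to 143 lower and 15 to 53 higher, fewest without FA3. Mice with the same replicate number shared the array position. Their deviations correlated at 0.08, 0.04, 0.01 and 0.11, and those of FA and PR mice with different numbers at −0.09 to 0.05. Whether the number marks a pairing was not tested. The fit with the replicate block gave 6 lower and 5 higher, and 0 GAA probes called. After removing the block, 2782 of all 39429 probes were lower and 3966 higher without overlap, against 2000 and 2361 before. Removing any such block takes away spread within the groups, so a rise in these counts does not show that the replicate number matters. GAA probes called numbered 20 with normexp and 1 to 8 with a mouse left out, while their median ran from −0.585 to −0.434 and 49 to 51 of 51 were negative. Of 1003 list medians under alternatives, 23 moved by more than the spread. The causes of these shifts were not tested. Dim probes near background and 4 mice per diet limit what could be called.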
